A study of Mus musculus with 6 samples.

Results

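Egr1, Egr2 and Egr3 encode zinc finger transcription factors of the early growth response family. They are the 3 genes described here, of 23462 named genes with a probe on the array, and they were chosen by name after measured values of these arrays had been seen, including their differences between treatment groups and between places on the slide. Those differences are therefore given as descriptions, with no test. All probes of the 3 genes were taken: 1 for Egr1 (A_51_P367866), 1 for Egr2 (A_51_P173043) and 3 for Egr3, of which A_55_P2787986 was the brightest. Each probe had 1 spot per array.

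Egr genes are immediate early genes: growth factors, serum and stress switch on their transcription within minutes, without new protein synthesis. The signal runs through RAS, RAF, MEK and the ERK kinases to Elk factors, which sit with serum response factor (SRF) on the CArG boxes of Egr promoters. The Egr proteins then bind GC-rich sites in their target genes, and they induce their own corepressor Nab2, which closes a feedback loop. In reproduction Egr1 is best known from the pituitary, where it drives the gene for the beta subunit of luteinising hormone. Egr2 is known for Schwann cell myelination and Egr3 for the muscle spindle.

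The cells were TM4, a line derived from mouse testis and used as a model of Sertoli cells, the somatic cells that nurse germ cells in the seminiferous tubule. The untreated group (3 samples) received no 4-nitrophenol (PNP), and the PNP group (3 samples) received 10 µM of it for 24 h. PNP is a phenol present in diesel exhaust and formed from the insecticide parathion. All 6 samples were of 1 male line, the labels name no vehicle, and they do not say whether replicates came from separate cultures, so a p-value here covers only how these samples scatter, and part of that scatter may be technical. Each sample was hybridised to 1 single-colour Agilent array, and the number of arrays limits the precision.

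Each array has a place on its slide, read from the end of its barcode, which is called array position 1 or 2 here; the labels do not say what else the position stands for. Of the untreated samples, replicates 1 and 3 lay at position 1 and replicate 2 at position 2. Of the PNP samples, replicate 2 lay at position 1 and replicates 1 and 3 at position 2. Each of the 3 slides therefore held 1 array of each position: both arrays of slide 1 were untreated, both of slide 3 were PNP, and slide 2 held untreated replicate 3 and PNP replicate 1. Position and treatment are partly mixed, since 2 of 3 untreated samples but 1 of 3 PNP samples lay at position 1. The share of probes well above background, the scanner's flag for a spot brighter than its surroundings, ran from 47.8% to 57.8% of 56605 probes per array, and no spot was saturated. The 2 lowest shares fell on slide 2, 1 at each position. All values below are log2 of the processed signal minus the array's 75th percentile, so 0 is the level of a fairly bright probe, and a difference of 1 is a doubling.

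Egr1 was well above background on all 6 arrays. Its value was 3.09 in untreated replicate 1, 1.15 in untreated replicate 2 and 3.09 in untreated replicate 3. It was 1.20 in PNP replicate 1, 3.39 in PNP replicate 2 and 0.86 in PNP replicate 3. The 3 high arrays are the position 1 arrays and the 3 low arrays are the position 2 arrays, in both treatment groups. On the scanner's own scale, before any normalization, the signal was 2636, 3993 and 4781 at position 1 and 606, 1006 and 697 at position 2.

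The mean of Egr1 was 2.44 ± 1.12 without PNP and 1.82 ± 1.37 with PNP (SD, n = 3), a difference of -0.63 ± 0.72 (SE of the limma fit). The treatment groups overlapped, and the spread within each was larger than the difference between them. Sorted by position, the means were 3.19 ± 0.17 and 1.07 ± 0.18 (SD, n = 3), and those groups did not overlap. With treatment held in the fit, position 2 was lower by 2.15 ± 0.20 (SE) on the log2 scale, which is 4.44-fold. The position difference was -1.94 among untreated samples and -2.36 among PNP samples. With position as a block, PNP minus untreated was 0.09 ± 0.20 (SE), and it was 0.30 within position 1 and -0.12 within position 2.

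**Figure D1:**
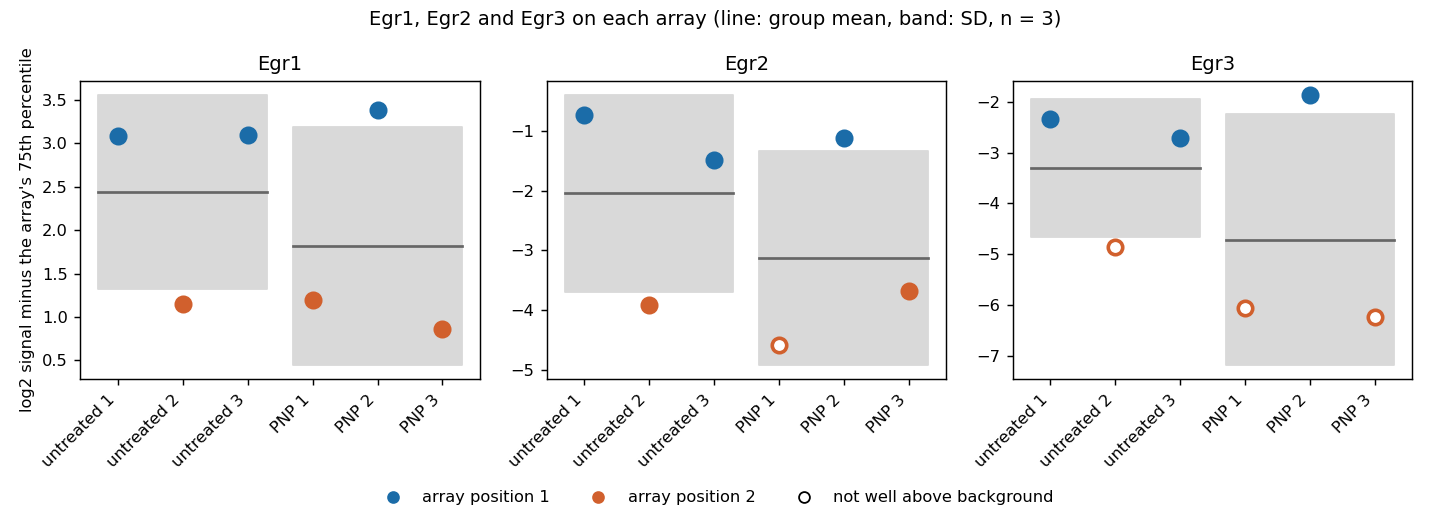
Normalised log2 signal (log2 minus the array's 75th percentile) of the brightest probe of Egr1, Egr2 and Egr3 on each of the 6 arrays, by treatment group, with array position marked. For each gene the 3 position 1 arrays lie above the 3 position 2 arrays, and for Egr1 they lie between 3.09 and 3.39 against 0.86 to 1.20.

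Egr2 has the only promoter windows of the family in the RefSeq sequence table used here (build GRCm38.p6): 5 annotated starts, each with 250 bases before and 50 after it. The window below is shown because it carries a CArG box, the SRF element through which ERK signalling reaches Egr genes. It is chr10:67537619-67537918, plus strand, with the CArG box in capitals, beginning at base -72 counted from the start.

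Egr2 promoter: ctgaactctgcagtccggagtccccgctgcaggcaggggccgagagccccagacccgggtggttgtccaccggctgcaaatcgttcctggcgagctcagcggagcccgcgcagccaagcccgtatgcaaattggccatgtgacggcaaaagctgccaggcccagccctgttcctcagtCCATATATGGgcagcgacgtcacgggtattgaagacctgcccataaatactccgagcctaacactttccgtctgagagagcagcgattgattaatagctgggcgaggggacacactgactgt

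A CArG box, searched on both strands as CC, 6 bases of A or T, and GG, was found in 4 of the 5 Egr2 windows. The windows overlap, and the 4 matches are 2 distinct boxes. Among all 32851 promoter windows of the same length, 1.63% held such a match. The EGR site itself, searched as GCGTGGGCG on both strands, was in none of the 5 Egr2 windows and in 0.612% of all windows. A match is a stretch of letters and was not measured as a bound site. Counted by gene, 1.81% of 27025 genes held a CArG box in at least 1 window. Among listed genes with a window, it was in Srf (1 of 17 on the route from ERK to SRF), Zfp36 (1 of 21 other immediate early genes), Dusp5 (1 of 8 ERK feedback inhibitors) and Prm1 (1 of 6 germ cell markers). It was in 0 of 5 corepressors and relatives, 0 of 15 reported targets, and 0 of 7, 4, 3, 2 and 1 Sertoli, Leydig, peritubular myoid, macrophage and endothelial markers.

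Egr2 was dimmer. Its values were -0.74, -3.91 and -1.49 in untreated replicates 1, 2 and 3. They were -4.59, -1.12 and -3.68 in PNP replicates 1, 2 and 3. It was well above background on every array but PNP replicate 1, a position 2 array with the lowest value, so that value is not a measured level. The order of the arrays repeats that of Egr1 by position: 3 high at position 1 and 3 low at position 2. The scanner's signal was 186, 167 and 210 at position 1 and 18.2, 18.2 and 29.9 at position 2.

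The mean of Egr2 was -2.05 ± 1.66 in untreated and -3.13 ± 1.80 in PNP samples (SD, n = 3), a difference of -1.09 ± 0.98 (SE), and the treatment groups overlapped. By position the means were -1.11 ± 0.38 and -4.06 ± 0.47 (SD, n = 3). With treatment in the fit, position 2 was lower by 2.91 ± 0.32 (SE) on the log2 scale, a value that includes 1 of 3 position 2 arrays where Egr2 was not well above background and is given without a fold. With normexp, another background correction, the position difference of Egr2 was -1.33. It was run with an offset of 50 added to each signal, which shrinks differences between dim values. The difference was -2.80 among untreated and -3.02 among PNP samples. With position as a block, PNP minus untreated was -0.12 ± 0.32 (SE), and within the positions it was -0.01 and -0.23. Once arrays of the same position were set side by side, the treatment difference of Egr2 was thus smaller than its standard error.

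Egr3 has 3 probes, which differed. The brightest was well above background on the 3 position 1 arrays and on no position 2 array. Its values were -2.34, -4.86 and -2.72 in untreated replicates 1, 2 and 3, and -6.06, -1.86 and -6.23 in PNP replicates 1, 2 and 3. The 3 low values did not reach the well-above-background flag, so no order is read among them. A bound is therefore given, in which each position 2 array enters at its dimmest probe that is well above background, or at the Egr3 probe if that is brighter. Against this bound, position 1 was 3.99-fold higher. The bound is not a detection limit of this probe, and the value holds for this background correction only. The scanner's signal was 61.4, 71.1 and 126 at position 1 and 9.44, 6.58 and 5.12 at position 2. With normexp the fitted position difference was -0.76. The measured means were -2.30 ± 0.43 at position 1 and -5.72 ± 0.75 at position 2 (SD, n = 3).

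By treatment, the Egr3 probe averaged -3.30 ± 1.36 in untreated and -4.71 ± 2.48 in PNP samples (SD, n = 3), a difference of -1.41 ± 1.19 (SE) in the fit without a filter and -0.31 with normexp. It was well above background on 2 of 3 untreated arrays and 1 of 3 PNP arrays, so it did not enter the treatment test, and the groups overlapped. Within position 1, the only place where it was measured, PNP minus untreated was 0.67. The other 2 Egr3 probes did not reach the flag on any of the 6 arrays, and their position differences of means were -0.41 and 0.07. Egr4, the remaining family member, known for its role in male germ cells, reached the flag on 0 of 6 arrays.

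**Figure D2:**
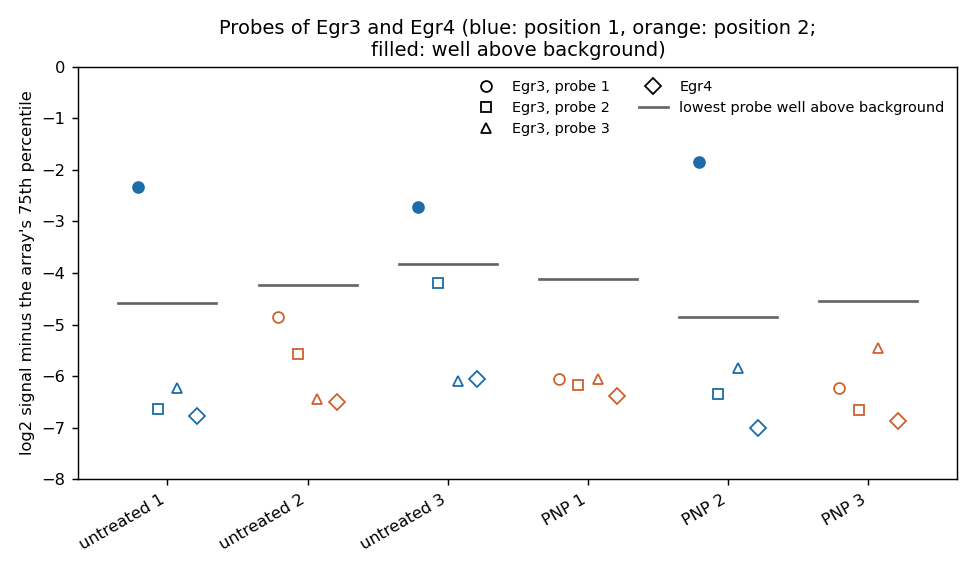
Normalised log2 signal of the 3 Egr3 probes on the 6 arrays, with filled or open points for well above background or not. The brightest probe is well above background on the 3 position 1 arrays alone, between -2.72 and -1.86, and the other 2 probes on none.

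The 3 genes had like patterns across arrays. Pearson's r over the 6 arrays was 0.95 for Egr1 with Egr2, 0.97 for Egr1 with Egr3 and 0.95 for Egr2 with Egr3. The points share the same RNA and the same arrays, and the 6 points form 2 clusters, 1 for each position. The low Egr3 values are not well above background. On each of the 3 slides the position 2 array was the lower. For Egr1 the slide differences were -1.94, -1.89 and -2.53, and for Egr2 -3.17, -3.10 and -2.57, where the slide 2 value rests on PNP replicate 1, in which Egr2 was not well above background. No size is given for Egr3 by slide, since its probe was well above background on no position 2 array. Slides 1 and 3 each compare samples of 1 treatment, while on slide 2 the position 2 array is also the PNP array.

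**Figure D3:**
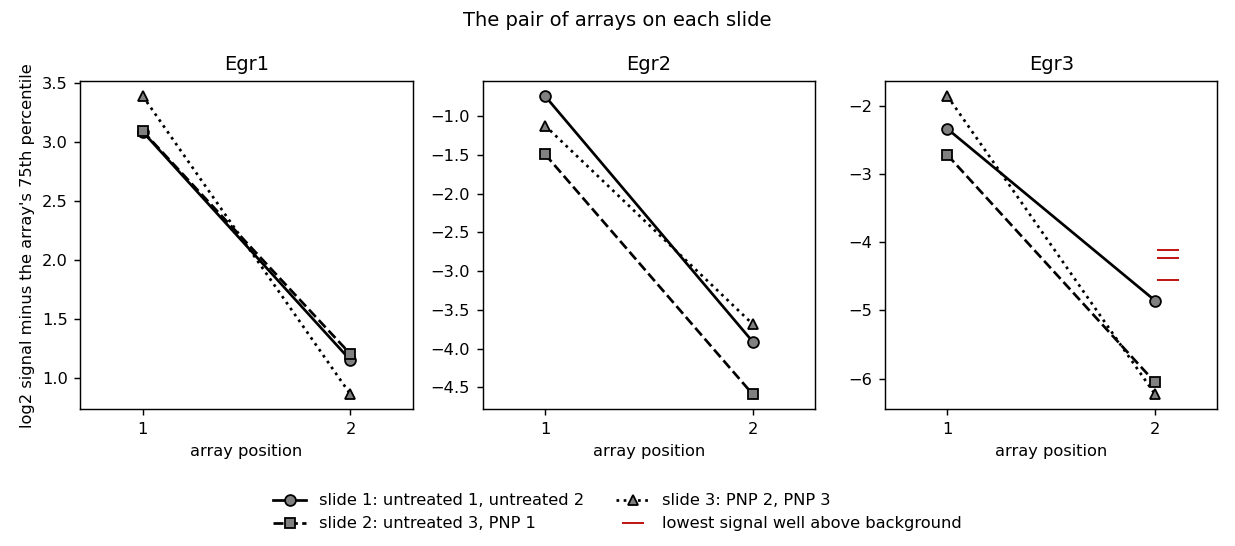
Normalised log2 signal of the 3 genes on each slide, with a line joining its position 1 and position 2 arrays. All 9 lines fall, including those of slide 1, where both samples were untreated, and slide 3, where both were PNP. The lower ends of Egr3, and of Egr2 on slide 2, are not well above background.

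The same comparisons were fitted over all genes. For treatment, limma (2-sided, Benjamini-Hochberg) tested 21476 units, each a named gene or an unnamed transcript. Of these, 0 passed an adjusted p of 0.05 (0%), 2132 had an unadjusted p under 0.05, and the treatment groups did not overlap in 15.2%. Egr1 and Egr2 entered, and neither was among those in either count. Between array positions, limma with treatment as a term passed 833 of 21385: 479 lower at position 2 (2.24%) and 354 higher (1.66%). Positions did not overlap, with position 2 lower, in 11.2%, and all 3 Egr genes were among those; since the position difference helped choose the genes, nothing is read from that count.

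**Figure D4:**
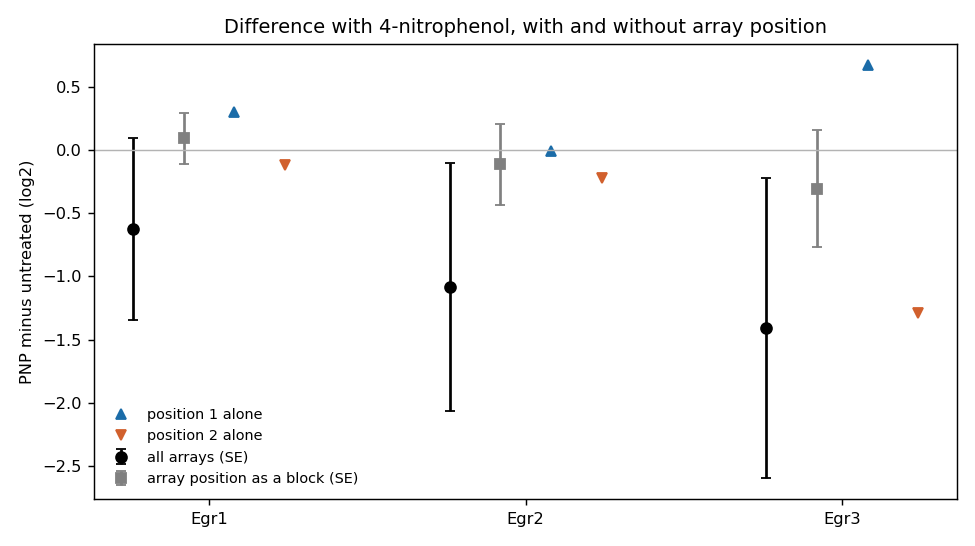
PNP minus untreated (log2) for the 3 genes as fitted without and with array position as a block, and within each position. The difference of Egr1 goes from -0.63 to 0.09 and that of Egr2 from -1.09 to -0.12 once position is in the fit. The Egr3 values rest partly on arrays where its probe was not well above background.

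No gene upstream of Egr transcription passed the limma test. Few units did: 0% of all units passed for treatment, 2.24% as lower at position 2 and 1.66% as higher. That 0 passed in a list this small is therefore not a result about the list. Of 24 genes on the route from growth factor receptors through ERK to SRF, all 24 were tested, 0 passed for treatment and 0 for position, and the median position difference was 0.03, against 0.07 over all units tested. Map2k1 (MEK1) differed by -0.22. Mapk3 (ERK1) was at 0.60 ± 0.19 (SE; limma adjusted p = 0.124). Srf, the factor that binds the CArG box, had a position difference of -0.59 ± 0.22 (SE; limma adjusted p = 0.169) and a treatment difference of -0.56 ± 0.29 (SE; adjusted p = 0.557). Its position 1 arrays lay between 2.82 and 3.26 and its position 2 arrays between 1.91 and 2.59, and it did not pass.

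Nab2, the corepressor that Egr proteins induce and that then blocks them, was at 1.60, 0.70 and 1.35 in untreated replicates 1, 2 and 3 and at 0.22, 0.95 and 0.38 in PNP replicates 1, 2 and 3. The 3 position 2 arrays were the lowest, with a fitted difference of -0.71 ± 0.18 (SE, limma adjusted p = 0.0788), which did not pass. As a plain difference of position means it was -0.87 at this probe and -1.30 at the second Nab2 probe. The treatment difference of Nab2 was -0.70 ± 0.30 (SE, limma adjusted p = 0.492), against -0.75 at its second probe. The related zinc finger genes Wt1 and Sp1 differed between positions by -0.35 and 0.15, and neither passed. Sp1 had a treatment difference of 1.14 ± 0.23 (SE; limma adjusted p = 0.228), against 0.07 at its second probe. Of the 4 tested corepressors and relatives 0 passed, at the same low shares over all units.

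No gene reported as an Egr target passed either, which at the same low shares over all units is not a result about these genes. Of 16 tested, of 22 listed, 0 passed for treatment and 0 for position, 7 were negative for each contrast, and the median position difference was 0.13. The secreted growth factors Tgfb1 and Pdgfa were at 0.44 and 0.15. Fn1, which encodes fibronectin, was at 0.17, and Thbs1, which encodes thrombospondin, at -0.49. The cyclin gene Ccnd1 had -0.54 for position and -0.55 for treatment, and neither passed.

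Genes that passed for position were found in lists of other ERK-responsive genes. Of 26 other immediate early genes, 3 passed as lower at position 2 and 0 as higher, against 2.24% and 1.66% of all units; 17 had negative differences, with a median of -0.27. Of 9 tested ERK feedback inhibitors, which are induced by ERK and dampen it, 4 passed as lower and 0 as higher, with a median of -1.26. For treatment, 23 of the 26 and 9 of the 9 differences were negative, with medians of -0.23 and -0.49 against -0.03 over all units, and 0 passed. That fit held no term for position, and 2 of 3 untreated but 1 of 3 PNP samples lay at position 1. In the treatment fit with position as a block, 0 of 21476 units passed, and the list medians were not taken from that fit. The part of position in these negative treatment differences was not tested.

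Fosl1, which encodes an AP-1 subunit, ranged from 0.47 to 1.26 on the position 1 arrays and from -1.91 to -1.39 on the position 2 arrays. Its fitted difference was -2.50 ± 0.27 (SE; limma adjusted p = 0.0132), 5.64-fold. Fosl2, another AP-1 subunit gene, fell by 1.21 ± 0.18 (SE; adjusted p = 0.0218) at position 2, and the orphan receptor gene Nr4a1 by 1.00 ± 0.18 (SE; adjusted p = 0.0347). Fos, the classical partner of the Egr genes in the serum response, had -0.88 ± 0.55 (SE; adjusted p = 0.407) and was well above background on 5 of 6 arrays. Jun, Junb, Fosb and Ier2, also immediate early genes, did not pass, with differences of 0.22, -0.20, 0.29 and -0.59.

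Among the feedback inhibitors, Spry2, a Sprouty inhibitor of RAS and RAF signalling, ranged from -0.04 to 0.47 at position 1 and from -2.40 to -1.65 at position 2. Its difference was -2.22 ± 0.26 (SE; limma adjusted p = 0.0136), 4.64-fold. Dusp6, a cytoplasmic ERK phosphatase, had values of 3.88, 3.79 and 3.95 at position 1 and 2.32, 2.16 and 2.41 at position 2, a difference of -1.59 ± 0.18 (SE; adjusted p = 0.0132), 3.01-fold. Spry1 was lower by 1.61 ± 0.21 (SE; adjusted p = 0.0153) and the nuclear ERK phosphatase gene Dusp5 by 1.37 ± 0.25 (SE; adjusted p = 0.0318). Dusp1, a phosphatase with wider substrates, was at 0.30 and did not pass. These calls depend on single arrays. Without untreated replicate 2 or untreated replicate 3 neither list had a gene that passed, and without PNP replicate 2 the feedback list had 0 and the immediate early list 1. The immediate early list also had 1 without untreated replicate 1 and 1 without PNP replicate 3.

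**Figure D5:**
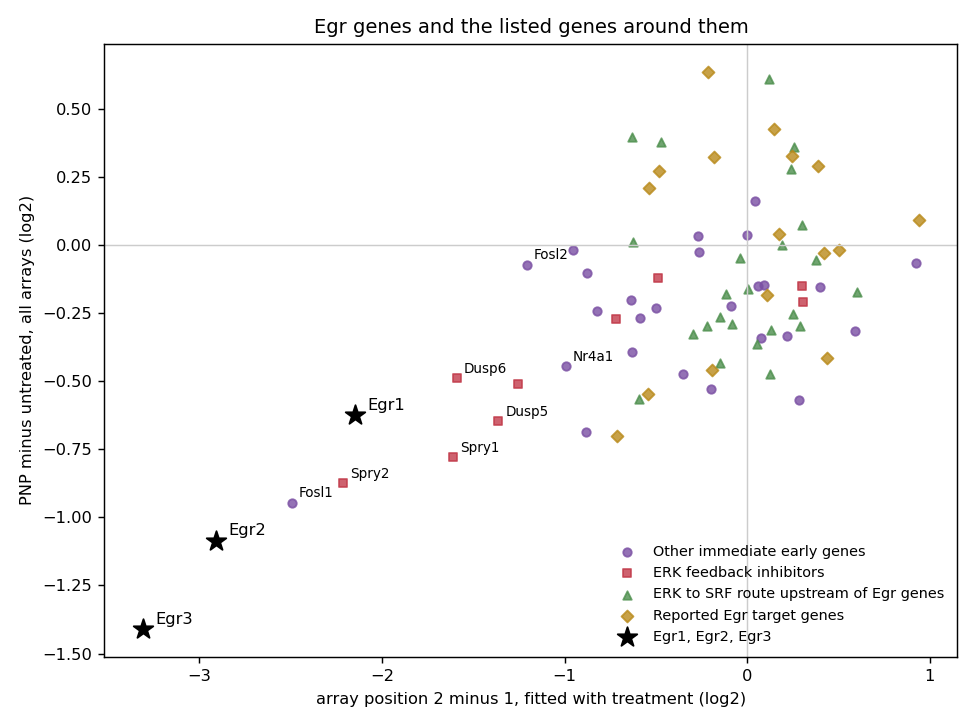
Position difference (position 2 minus 1) against treatment difference (PNP minus untreated), both log2, for the genes of the lists with the Egr genes marked. Spry2, Dusp6 and Fosl1 lie low on the position axis, at -2.22, -1.59 and -2.50, while the ERK-to-SRF genes lie around 0. The Egr3 point rests on position 2 arrays where its probe was not well above background.

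The 3 genes with the highest Pearson's r with each member over the 6 arrays were named, among 12547 genes (12548 for Egr2 and Egr3) well above background on all 6 arrays. For Egr1 these were Nasp, a histone chaperone (r = 0.9998, position difference of means -0.85), Fam168b (-0.40) and Usp31 (-1.36). For Egr2 they were Lce1h (-1.46), Eif2b3, a subunit of a translation initiation factor (-0.41), and Pmepa1, an inhibitor of TGF-beta signalling (-1.37). For Egr3 they were Npff (-1.06), Ackr3, a chemokine receptor, and Pcdh7, a protocadherin (-1.03). These genes follow position over the same 6 arrays, and the size of their position difference varies from -1.46 to -0.40. The lowest r among these 9 genes was 0.990, for Pcdh7, and no p is given, since the arrays share the same position split.

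Markers checked the cell type. Of 15 Sertoli cell markers, 12 were well above background on all 6 arrays, but Amh, Fshr and Cldn11, which encode anti-Müllerian hormone, the FSH receptor and a tight junction protein, were on none. All 5 peritubular myoid markers, such as the smooth muscle actin gene Acta2, were above it on all 6 arrays when any probe counted. At the brightest probe, which the sums below use, 4 of the 5 were. None of the 5 Leydig markers on the array was above it anywhere.

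Summed scaled signals of these lists are given by group. Treatment groups did not overlap in 15.2% of all units tested. Positions did not overlap, with position 2 lower, in 11.2%. The macrophage and germ cell sums below were separate with position 2 higher, and the share of all units for that direction is not given here. Nothing is therefore read from sums or marker genes whose groups were separate. Sertoli markers summed to 11.3 to 14.3 in untreated and 10.4 to 11 in PNP samples, without overlap, and to 10.5 to 13.9 and 10.4 to 14.3 at positions 1 and 2. Sox9, which directs Sertoli cell fate, had a treatment difference of -0.80 ± 0.23 (SE; limma adjusted p = 0.304) with separate groups. Leydig markers, all below the flag, summed to 0.0670 to 0.111 untreated and 0.0409 to 0.0656 with PNP, also without overlap. By position they summed to 0.0409 to 0.111 and 0.0543 to 0.0670. Peritubular myoid markers overlapped in both splits: 155 to 223 and 168 to 198 by treatment, and 155 to 223 and 168 to 220 by position.

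Macrophage markers summed to 4.35 to 5.99 at position 1 and 6.28 to 9.67 at position 2, without overlap, and overlapped by treatment (5.22 to 9.67 and 4.35 to 7.94). The lysosomal gene Cd68 was higher at position 2 by 1.16 ± 0.20 (SE; limma adjusted p = 0.0289), where 1.66% of all units passed as higher. Csf1r, the receptor for a macrophage growth factor, was above background on all 6 arrays, with a position difference of 0.11 and a treatment difference of -0.61 ± 0.27 (SE; limma adjusted p = 0.510). Adgre1, a macrophage marker, and Ptprc, a marker of all leukocytes, were above background on no array.

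Germ cell markers summed to 0.182 to 0.227 and 0.230 to 0.279 at positions 1 and 2, without overlap, and overlapped by treatment (0.182 to 0.230 and 0.222 to 0.279). Sycp3, a gene of the meiotic chromosome axis, was above background on all 6 arrays, with separate positions and a difference of 0.41 ± 0.19 (SE; limma adjusted p = 0.263). Dazl was above it on 1 array, and Ddx4, Stra8, Kit and Prm1 on none. Endothelial markers overlapped in both splits, with Pecam1 above background on 2 arrays and Cdh5 and Kdr on none. The part of these marker shifts in the Egr differences was not tested.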

How the data were processed

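Total RNA was amplified, labelled with Cy3 and hybridised to 6 arrays of 62976 spots (3671 controls), per the labels' protocols. The deposited intensity values are Agilent Feature Extraction output (version 11.5.1.1 per the file headers, 10.7 per the submitters' processing notes): a background-subtracted processed signal, not normalized between arrays. The authors' deposited log2 table matches each array's own signal (r of at least 0.998 across probes); its columns have equal distributions and a median of 4.74, so its scale and quantile-like normalization are inferred here, not stated.

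Processed signals were put on the log2 scale, outlier spots were dropped, replicate spots were averaged, and the 75th percentile of the array was taken off. The filter kept probes flagged well above background throughout 1 treatment group or, in the position comparison, throughout 1 position (3 arrays), and a gene was taken by its brightest passing probe. Accessions were matched without versions to RefSeq names of GRCm38.p6, while the file headers name mm9, so no gene coordinates were taken from that table: 33767 probes had a symbol and 22838 did not, each unnamed accession being its own unit.

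Group differences were fitted in R 4.3.3 by limma 3.58.1 (2-sided lmFit and eBayes fits), with Benjamini-Hochberg adjustment over every unit tested, and its script was tested on simulated data. Random blocks used statmod 1.5.0, and files were read by the data.table package (version 1.17.8). The members, gene lists and named genes were chosen with earlier results of these data known, so no list supports another. Named genes were the 3 Egr genes, a panel by role (some of its genes are not reported here), the genes most like each member, and list genes that passed for position; the last were named after their values were seen. Alternatives were other background corrections, normalizations and filters, the authors' values, blocks for slide, position and replicate number, a robust trend, and leaving out each array.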

Additional observations from a re-analysis of the deposited data

Results flagged for a closer look

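The treatment difference of Egr3 had opposite signs at the 2 array positions: PNP minus untreated was 0.673 at position 1 and -1.29 at position 2. It was raised because each comparison of samples within position 1 was above 0 (0.48 to 0.86) and each within position 2 below 0 (-1.37 to -1.20). These comparisons are not independent: those within position 1 share PNP replicate 2, and those within position 2 share untreated replicate 2. At position 2 the Egr3 probe reached the well-above-background flag on 0 of 3 arrays, so that difference is not a measured level and no direction is read from it. The interaction of treatment and position was fitted over all 21385 units with limma, and 0 passed an adjusted p of 0.05 (341 at an unadjusted p under 0.05); no test is given for Egr3 itself.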

How the results depend on the processing

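Among treatment differences, Egr1 turned positive with array position as a block (0.0907) and within position 1 (0.30), and Egr3 within position 1 (0.67). With slide as a fixed block, which rests on slide 2 alone, Egr1 was -1.89 and Egr2 -3.10, but those slide 2 arrays also differ in position. Leaving out one array gave treatment differences of -1.41 to -0.15 for Egr1, -2.09 to -0.36 for Egr2 and -2.84 to -0.65 for Egr3. The genes passing limma for treatment, 0, ranged from 0 to 53 when one array was left out (4 without untreated replicate 2, 53 without PNP replicate 1), and no gene of the lists passed under any of the 19 alternatives. Position differences stayed negative for all 3 genes throughout. With normexp background correction Egr2 was -1.33 and Egr3 -0.76, and the treatment differences were -0.45, -0.64 and -0.31 for Egr1, Egr2 and Egr3. Leaving out one array gave -2.36 to -1.94 for Egr1 and -4.29 to -2.33 for Egr3. The genes passing for position, 833, were 0 without a filter (45217 units tested), 2547 with slide as a fixed block, 3491 with slide as a random block and 1529 with a robust trend, and 0 to 921 when one array was left out (0 without untreated replicate 3, 1 without untreated replicate 2). Under these settings the feedback inhibitors called ranged from 0 to 6 and the immediate early genes from 0 to 9, both 0 without a filter. The cause of these changes was not tested, and normexp was run with no other offset than 50. Median centring moved the median of all units for treatment from -0.03 to -0.14.

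With the replicate block, the treatment difference of Egr1 was -0.63, of Egr2 -1.09 and of Egr3 -1.41, as without it. These differences could not change, since each replicate number holds an untreated and a PNP sample. With that block 0 genes passed for treatment and 631 for position. The labels give same-numbered samples no link besides the number. Their deviations correlated at -0.41, -0.55 and -0.41, but each pair held opposite array positions. These values therefore cannot tell whether same-numbered samples share a culture or a batch.

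Egr3 and, in PNP replicate 1, Egr2 lie near background, which limits their fold changes.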
